A study of Mus musculus with 12 samples.

Results

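The genes described here are the long non-coding RNAs (lncRNAs) that were expressed in mouse liver when either of a pair of AP-1 transcription factor subunits, Fra-1 or Fra-2, was switched on. They are the rows of a gene count table whose deposited gene type is lncRNA and that reached at least 2 CPM (counts per 1000000 counts of the library) in at least 3 of 12 libraries. This level rule kept 383 of 9963 lncRNA rows, in a table of 55421 rows. H19 was left out of the set by name, whatever its level. The rule used the same counts as the comparisons below, so levels are given as a description. Of the 383 lncRNAs, 192 were at 2 CPM or more in all 12 libraries, 7 passed through mutant libraries only, and 17 through control libraries only. The last lncRNAs inside the rule, ranked by the third library in height, were Gm42067 at 2.01 CPM, Gm39157 at 2.00 CPM and Gm10134 at 2.00 CPM. Just outside were D030028A08Rik at 1.97 CPM, Gm29571 at 1.96 CPM and Gm12354 at 1.96 CPM.

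Long non-coding RNAs are transcripts with no long conserved reading frame, and many are spliced and polyadenylated much as messenger RNAs are. Some work as RNA, such as Neat1, which builds nuclear paraspeckles, while others are the spliced remnants of genes whose introns release small nucleolar RNAs or microRNAs. Many lie antisense to, or start beside, a protein-coding gene. Fra-1 (gene Fosl1) and Fra-2 (gene Fosl2) belong to the Fos family and bind DNA with a Jun partner as the dimer AP-1, which acts in growth, stress and inflammation.

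The 12 libraries came from livers of adult male C57BL/6 mice of the strains Fra1hep and Fra2hep, with 3 controls and 3 mutants of each, and the labels call the tissue mostly hepatocyte. Mutants of either strain carry a transgene that comes on when doxycycline is taken away, which was done at weaning, at 3 weeks of age, and the controls were littermates from the same cages given the same treatment. The titles give 2 months for all groups, whereas the treatment label of the 3 Fra2 mutants reads 9 months. Age and genotype therefore cannot be told apart with certainty in that strain. No source used here names the promoter that drives the transgenes.

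Libraries held 16834041 to 20464807 counts, of which the 383 lncRNAs took between 0.382% (Fra2 mutant 2) and 0.708% (Fra2 control 2). Counts of Fosl1 were 0, 0 and 1 in Fra1 controls against 172, 193 and 252 in their mutants. Counts of Fosl2 were 6821, 7718 and 8101 in Fra2 mutants against 221, 861 and 297 in their controls. The high Fosl2 value was that of Fra2 control 2, and Fra2 control 1 was the control with the most Fosl1 (11 counts). Both libraries carry their label here. The Fra2 log2 fold changes of the lncRNAs called in Fra2, and the Fra2 median of all lncRNAs, are also given without them. Summed CPM of 5 hepatocyte markers (Alb, Apoa1, Ttr, Serpina1a, Cyp2e1) ran from 82723 to 119810 in the Fra1 controls and from 48919.6 to 98484 in the Fra1 mutants. In the Fra2 controls the same sum ran from 102621 to 123226, and in the Fra2 mutants from 55217 to 66362. The 6 stellate and fibroblast markers summed to between 216 and 291 CPM in the Fra1 controls and to between 351 and 458 CPM in the Fra1 mutants, and of these Dcn, a matrix proteoglycan gene, rose. The 3 erythroid markers summed to between 265 and 366 CPM in the Fra1 controls and to between 128 and 210.3 CPM in the Fra1 mutants. In Fra2 the 4 B cell markers summed to 5.34 to 6.95 CPM in the controls and 3.54 to 4.73 CPM in the mutants, and the 4 neutrophil markers to 1.51 to 2.90 and 2.98 to 4.85 CPM. The sums of the macrophage, endothelial, bile duct, and T and NK cell markers overlapped between mutants and controls in both strains. No marker tested other than Dcn was called (2 of 5 T and NK cell markers and 2 of 4 neutrophil markers were too low to be tested), none was at 0 counts in all libraries, and their part in the lncRNA differences was not tested. In such bulk tissue, fewer cells of a type and less RNA per cell cannot be told apart.

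Few lncRNAs passed the test in either strain, as did few of all genes tested, and in Fra1 more lncRNAs fell than rose. In Fra1 mutants against Fra1 controls, 4 of the 383 lncRNAs rose and 9 fell (edgeR's quasi-likelihood test over 14076 genes, Benjamini-Hochberg adjusted p under 0.05). That is 1.04% rising and 2.35% falling, beside 2.9% rising and 0.938% falling among all genes tested. In either direction 13 of the 383 lncRNAs were called in Fra1, beside 540 of the 14076 genes (3.84%). With no scaling factor between libraries the Fra1 calls were 7 up and 7 down, and over all genes tested they moved from 408 up and 132 down to 673 up and 102 down. In Fra2 mutants against Fra2 controls, 2 rose and 3 fell, or 0.522% and 0.783%, beside 0.845% and 0.22% of all genes (5 lncRNAs in all, beside 1.07% of all genes called in either direction). The Fra2 split turned to 3 rising and 2 falling with limma-voom and with no filter on low counts. Without Fra2 controls 1 and 2, only 1 Fra2 control library remained, so calls from that fit are not given. In all, 14 lncRNAs were called. Gm26747 entered the set through mutant libraries only, and Gm11844, Gm36264, Gm30931 and 1700113A16Rik through control libraries only, so for these 5 the level rule and the difference are not independent. Leaving out 1 library moved these counts, and 4 lncRNAs fell in Fra1 without Fra1 control 1, and 5 without Fra1 control 2 or without Fra1 mutant 1. In Fra2, 0 rose without Fra2 control 2, Fra2 control 3, Fra2 mutant 2 or Fra2 mutant 3, and 1 fell without Fra2 control 2, Fra2 control 3, Fra2 mutant 1 or Fra2 mutant 3.

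The lncRNAs as a whole lay slightly below their control level in both strains. The median log2 fold change (log2 of mutant over control) of the 383 was -0.24 in Fra1, with the middle 50% between -0.59 and 0.04, beside a median of 0.01 over all genes tested. In Fra2 it was -0.20, with the middle 50% between -0.51 and 0.05, beside -0.01 over all genes. Negative values were found for 281 lncRNAs in Fra1 (73.4%, beside 49.0% of all genes) and for 269 in Fra2 (70.2%, beside 50.9%). With no scaling factor the Fra1 median over all genes moved to 0.15 and that of the lncRNAs to -0.10, and in Fra2 these medians were 0.04 and -0.15, so the lncRNAs stayed below the other genes. The Fra2 shift was smaller without Fra2 control 2, the library with the highest lncRNA share, at a median of -0.10 with 59.8% negative. Without Fra2 controls 1 and 2 it was -0.06, with 56.9% negative. All 3 Fra1 mutants lay below all 3 Fra1 controls for 71 lncRNAs (18.5%, beside 9.98% of all genes) and above them for 12 (3.13%, beside 11.7%). In Fra2 the 3 mutants were below the 3 controls for 51 (13.3%, beside 8.17%) and above them for 19 (4.96%, beside 9.32%).

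**Figure D1:**
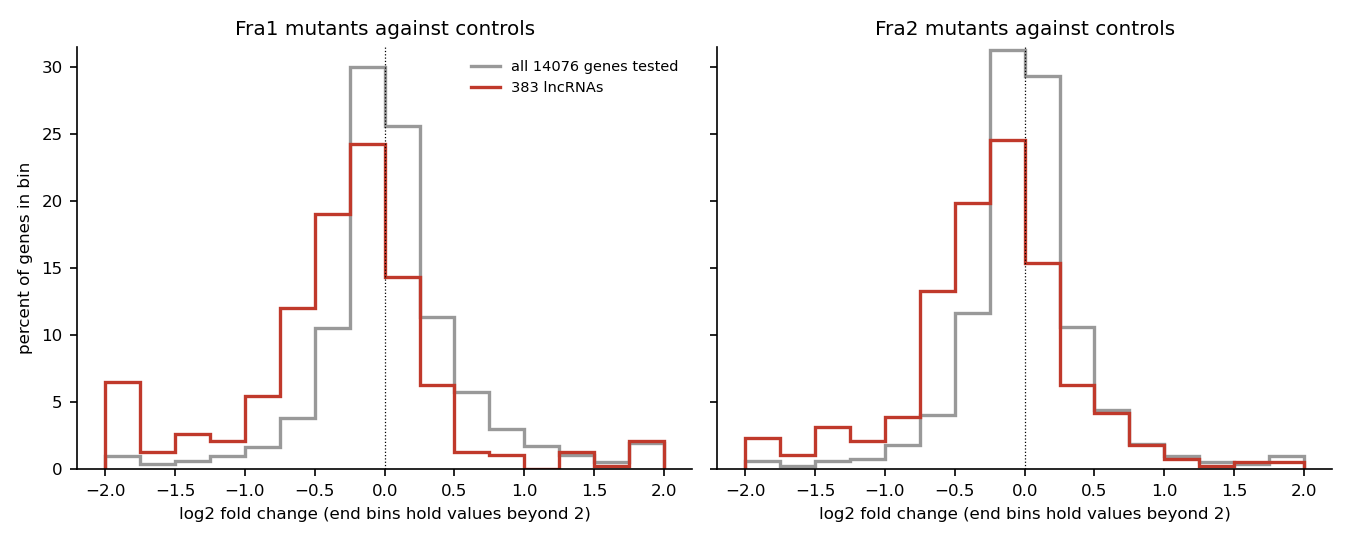
Share of genes (percent) by log2 fold change in bins, for the 383 lncRNAs (red) and all 14076 genes tested (grey), with Fra1 on the left and Fra2 on the right; the end bins hold values beyond 2. The lncRNA curve lies to the left of the grey curve in both strains, at medians of -0.24 and -0.20.

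Both lncRNAs called as rising in both strains, Gm19705 and Gm26747, are typed as intergenic lncRNAs. Gm19705 (ENSMUSG00000097113.7, chr1:136670769-136690804, plus strand, GRCm38) gave 0.783, 0.834 and 0.860 CPM in the Fra1 controls and 5.9, 8.05 and 8.17 in the Fra1 mutants. In the Fra2 strain it gave 2.37, 1.23 and 0.971 CPM in the controls and 5.08, 4.96 and 3.79 in the mutants. Mutants and controls did not overlap in either strain, and the mutants' excess was larger in Fra1. Its log2 fold change was 3.15 ± 0.33 (SE, edgeR adjusted p = 0.000320) in Fra1 and 1.59 ± 0.31 (adjusted p = 0.0347) in Fra2, and the difference of these effects, -1.55 ± 0.44, did not pass (adjusted p = 0.488). Gm26747 (ENSMUSG00000097783.2, chr8:121421238-121428043, plus strand) was nearly silent in controls, with 1, 4 and 2 counts in the Fra1 controls and 9, 2 and 1 in the Fra2 controls. Its counts were 61, 63 and 30 in the mutants of Fra1 and 36, 62 and 46 in those of Fra2, which comes to 2.72 ± 1.04 and 2.62 ± 0.671 CPM (mean ± SD, n = 3 here and below). Every mutant library of either strain was above every control library. The log2 fold changes were 4.34 ± 0.65 (adjusted p = 0.00298) and 3.53 ± 0.60 (adjusted p = 0.0183). The nearest coding gene to Gm19705, Zfp281, a zinc finger factor gene 40716 bases away, was at 0.23 ± 0.19 and 0.23 ± 0.18 (adjusted p = 0.599 and 0.712). Gm26747 overlaps Gm20388, a coding model with 0 counts here.

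Of the 4 lncRNAs called in both strains, 3 have a start site in RefSeq. A window at such a start is shown for each, because these genes moved in the same direction under either subunit. 1810008I18Rik, called in Fra2 alone, is shown beside them as the most abundant of the called lncRNAs. Gm19705, Gm36264 and 1810008I18Rik have 2 RefSeq windows each, of which 1 is printed here. Each sequence runs 5′ to 3′ on the gene's own strand from 250 bases before a RefSeq start (GRCm38.p6), and capitals mark the 50 bases from that start on. The windows are chr1:136683146-136683445 (plus strand) for Gm19705, chr8:121418377-121418676 (plus) for Gm26747, chr13:9076325-9076624 (minus) for Gm36264 and chr7:65802787-65803086 (plus) for 1810008I18Rik. The RefSeq start lies 77 bases from the GENCODE start for Gm36264 and 74 bases from it for 1810008I18Rik, but 2611 bases upstream for Gm26747 and 12627 bases inside the gene for Gm19705.
Gm19705: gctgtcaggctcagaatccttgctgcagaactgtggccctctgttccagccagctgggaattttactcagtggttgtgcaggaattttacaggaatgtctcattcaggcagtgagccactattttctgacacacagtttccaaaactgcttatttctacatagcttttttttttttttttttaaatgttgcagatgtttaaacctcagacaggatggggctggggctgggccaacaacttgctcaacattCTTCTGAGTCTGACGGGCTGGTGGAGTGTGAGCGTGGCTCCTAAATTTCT
Gm26747: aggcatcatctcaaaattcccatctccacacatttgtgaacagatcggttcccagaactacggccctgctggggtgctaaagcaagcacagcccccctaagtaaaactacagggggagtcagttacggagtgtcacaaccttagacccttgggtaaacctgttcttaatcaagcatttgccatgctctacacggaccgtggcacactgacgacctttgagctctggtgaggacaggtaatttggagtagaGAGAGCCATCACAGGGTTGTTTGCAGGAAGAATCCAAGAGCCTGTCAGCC
Gm36264: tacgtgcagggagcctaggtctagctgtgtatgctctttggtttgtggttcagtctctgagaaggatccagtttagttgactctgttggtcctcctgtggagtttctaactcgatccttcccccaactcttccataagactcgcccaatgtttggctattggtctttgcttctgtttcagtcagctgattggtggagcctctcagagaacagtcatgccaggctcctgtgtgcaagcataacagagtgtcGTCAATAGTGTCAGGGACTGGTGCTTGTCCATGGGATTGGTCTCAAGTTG
1810008I18Rik: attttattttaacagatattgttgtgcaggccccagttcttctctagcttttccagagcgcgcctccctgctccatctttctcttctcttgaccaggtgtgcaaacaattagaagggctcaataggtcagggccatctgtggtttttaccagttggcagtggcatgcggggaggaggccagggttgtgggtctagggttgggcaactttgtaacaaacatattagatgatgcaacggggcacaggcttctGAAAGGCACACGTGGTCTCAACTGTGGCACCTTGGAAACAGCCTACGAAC
The AP-1 motif TGANTCA and the related TGACGTCA were searched on both strands, each of which reads the same on either strand and neither of which contains the other. None of the 13 windows of the 10 called lncRNAs with a RefSeq start held either motif. TGANTCA occurred in 14 of 321 windows of all expressed lncRNAs (4.36%) and in 7.81% of the 32851 windows of this length in RefSeq. TGACGTCA occurred in 7 of the 321 (2.18%) and in 1.79% of all windows.

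The other 2 lncRNAs that rose did so by the test in Fra1 only. Gm31084 (ENSMUSG00000117226.1, chr17:74055731-74080293, minus strand) gave 1.89, 1.03 and 1.51 CPM in the Fra1 controls and 8.36, 12.6 and 7.1 in the Fra1 mutants. In Fra2 it gave 1.88, 2.18 and 0.971 CPM in the controls and 5.37, 3.6 and 2.28 in the mutants. The groups did not overlap in either strain, with Fra2 mutant 3 close to Fra2 control 2. Its log2 fold change was 2.67 ± 0.40 (adjusted p = 0.00313) in Fra1 and 1.16 ± 0.39 (adjusted p = 0.255) in Fra2. 4833422C13Rik (ENSMUSG00000074782.3, chr13:91701665-91741872, minus strand) rose from 1.29 ± 0.377 to 4.93 ± 1.57 CPM in Fra1, a log2 fold change of 1.94 ± 0.38 (adjusted p = 0.0160). Its Fra2 values were 1.6 ± 0.672 and 3.7 ± 0.945 CPM, again without overlap, and the log2 fold change of 1.21 ± 0.38 did not pass (adjusted p = 0.203). It is antisense to Ssbp2, which encodes a single-stranded DNA binding protein, over 1914 exon bases, and Ssbp2 was at -0.57 ± 0.33 (adjusted p = 0.428) in Fra1. Over the 12 libraries the profiles most like that of Gm19705 among the 383 lncRNAs were those of Gm26747, 4833422C13Rik and Gm31084, with Pearson correlations of log2 CPM of 0.943, 0.900 and 0.898. These are descriptions of genes chosen for their change in the same libraries.

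Gm36264 and Gm11844 fell in both strains. Gm36264 (ENSMUSG00000113543.1, chr13:9001432-9076451, minus strand, intergenic) was counted 90, 145 and 64 times in the Fra1 controls but 2, 8 and 5 times in the Fra1 mutants. In Fra2 it had 89, 52 and 47 counts in the controls and 7, 5 and 2 in the mutants. No mutant library came near any control library. In CPM it went from 5.48 ± 1.87 to 0.261 ± 0.156 in Fra1 and from 3.45 ± 1.28 to 0.262 ± 0.153 in Fra2. On the log2 scale the changes were -4.35 ± 0.52 (adjusted p = 0.000714) and -3.71 ± 0.52 (adjusted p = 0.00648). Gtpbp4, a ribosome biogenesis gene 5349 bases away on the same strand, was at -0.09 ± 0.20 (adjusted p = 0.868) and -0.26 ± 0.20 (adjusted p = 0.694). The Fra2 call of Gm36264 was the only one of the 5 that held in each of the 12 fits leaving out a single library.

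Gm11844 (ENSMUSG00000087241.1, chr4:15022582-15031987, plus strand) gave 7.31, 4.86 and 3.66 CPM in the Fra1 controls and 0.984, 1.58 and 1.17 in the Fra1 mutants. It gave 3.2, 5.3 and 7.44 CPM in the Fra2 controls and 0.817, 1.31 and 1.71 in the Fra2 mutants. The mutants of both strains lay between 0.817 and 1.71 CPM, below every control. Fitted log2 fold changes, -2.07 ± 0.39 (adjusted p = 0.0135) and -2.04 ± 0.39 (adjusted p = 0.0343), differed by 0.03 ± 0.55. The gene lies on the strand opposite to Necab1, which encodes a neuronal calcium-binding protein, with 0 exon bases in common. Necab1 was at 40.6 ± 9.99 CPM in the Fra1 controls and 90.7 ± 16.8 in the Fra1 mutants, a log2 fold change of 1.16 ± 0.32 that did not pass (adjusted p = 0.0780).

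1810008I18Rik was the most abundant of the called lncRNAs and the only one called in Fra2 but not in Fra1. This intergenic RNA (ENSMUSG00000100094.1, chr7:65803111-65806449, plus strand) gave 74.2, 130.0 and 98.2 CPM in the Fra2 controls and 30.3, 42.1 and 29.3 in the Fra2 mutants. In the Fra1 controls it gave 118, 100.3 and 70.6 CPM, and in the mutants 27.6, 64 and 37.9. Mutants were below controls without overlap in both strains, by a smaller margin in Fra1. The log2 fold change was -1.57 ± 0.32 in Fra2 (adjusted p = 0.0447) and -1.16 ± 0.31 in Fra1 (adjusted p = 0.0734). The difference of the effects was -0.41 ± 0.44 (adjusted p = 0.938), so the strains were not shown to differ. Pcsk6, a proprotein convertase gene 55285 bases away, was at -0.28 ± 0.14 and -0.06 ± 0.14 (adjusted p = 0.350 and 0.919). The profiles most like that of Gm36264 over the 12 libraries were those of 1810008I18Rik, Gm15998 and Gm11844, with Pearson correlations of 0.894, 0.886 and 0.871, all genes chosen for their change in these libraries.

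The 7 further lncRNAs called as falling passed in Fra1 only. The largest fall among them was that of Gm15998 (ENSMUSG00000086389.1, chr3:89315439-89318907, plus strand), with 20.4, 18.6 and 14.2 CPM in the Fra1 controls and 0.273, 1.000 and 1.93 in the Fra1 mutants. In Fra2 it gave 16.4, 10.7 and 21.4 CPM in the controls and 4.55, 0.272 and 2.23 in the mutants. All mutants of both strains were below all controls, and the Fra2 mutants were spread widely. The log2 fold changes were -4.03 ± 0.75 (adjusted p = 0.0141) and -2.79 ± 0.70 (adjusted p = 0.110). It shares 344 exon bases with Efna3 on the opposite strand, an ephrin gene that was below 0.1 CPM on average in each group. Gm30931 (chr8:46363251-46367204) went from 2.75 ± 1.5 to 0.330 ± 0.157 CPM in Fra1, or -3.02 ± 0.57 on the log2 scale (adjusted p = 0.0133), and was at -1.71 ± 0.52 in Fra2 (adjusted p = 0.184). Its nearest coding gene, Helt, had 0 counts.

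A pair of intergenic lncRNAs on chromosome 10 also fell in Fra1. Gm35696 (chr10:121506623-121526101, plus strand) went from 7.18 ± 1.43 to 1.47 ± 0.779 CPM, or -2.28 ± 0.45 on the log2 scale (adjusted p = 0.0170). In Fra2 its groups overlapped, at 7.06, 2.18 and 3.56 CPM in the controls and 2.86, 2.07 and 3.16 in the mutants (-0.66 ± 0.44, adjusted p = 0.642). The difference of the effects, 1.62 ± 0.62, did not pass (adjusted p = 0.697). Gm36041 (chr10:122386892-122435033, plus strand) went from 10.3 ± 4.01 to 2.19 ± 0.939 CPM in Fra1, or -2.24 ± 0.45 (adjusted p = 0.0176). It was at -1.32 ± 0.42 in Fra2 (adjusted p = 0.218), where the highest mutant just exceeded the lowest control. Their nearest coding genes, Tbk1, an innate immune kinase, and Avpr1a, a vasopressin receptor, were at -0.16 ± 0.11 (adjusted p = 0.520) and 0.55 ± 0.38 (adjusted p = 0.514) in Fra1. The last called lncRNA without a called partner was 1700113A16Rik (chr3:88171556-88177785), antisense to the transcription factor gene Mef2d over 531 exon bases. It went from 2.47 ± 0.576 to 1.04 ± 0.0190 CPM in Fra1 (-1.25 ± 0.30, adjusted p = 0.0384) while Mef2d was at -0.09 ± 0.15 (adjusted p = 0.827).

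**Figure D2:**
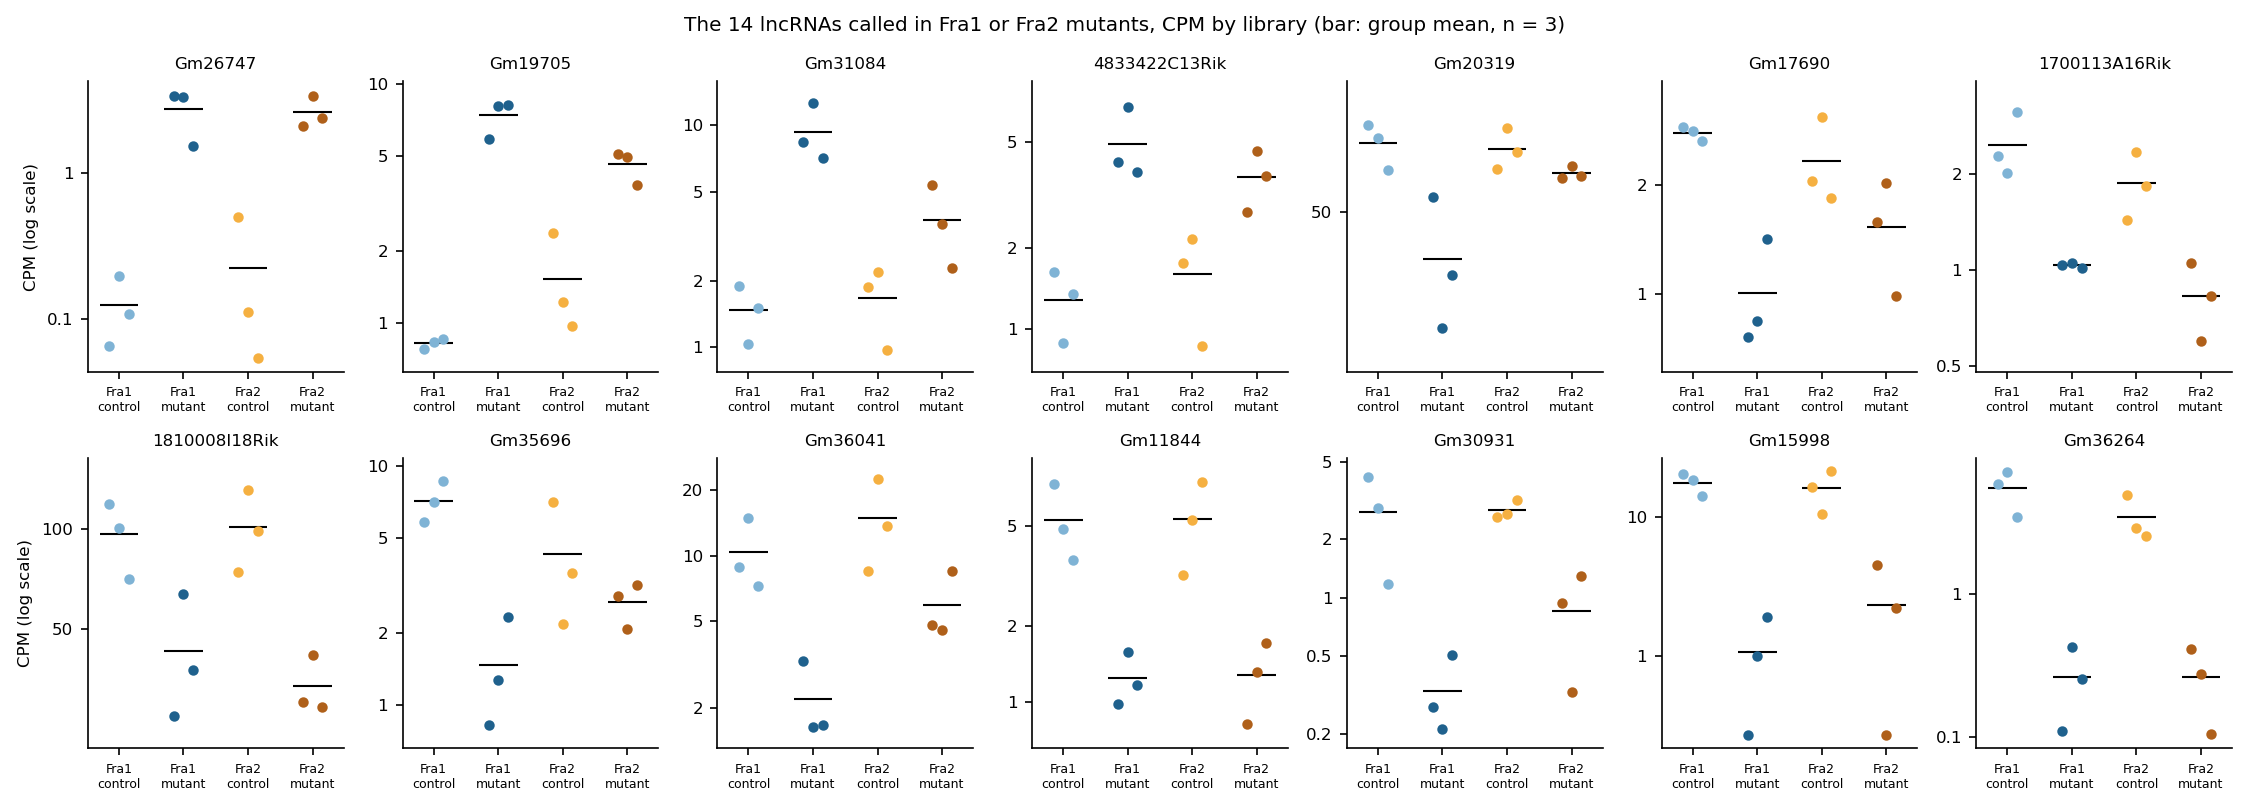
CPM (log scale, a separate axis for each gene) of the 14 lncRNAs called in Fra1 or Fra2 mutants, with a point for each library and a bar at the mean of 3 libraries. Gm26747, Gm19705, Gm31084 and 4833422C13Rik are higher in the mutants, and in Gm36264, the last panel, all 6 mutants lie below 0.5 CPM and all 6 controls above 2.5 CPM.

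How many fits kept a call differed between lncRNAs. In Fra1 the calls of Gm19705, Gm26747, Gm31084, Gm36264 and Gm15998 held in each of the 12 fits that left out a library, with adjusted p values up to 0.00373, 0.0225, 0.0222, 0.00506 and 0.0467. Gm30931 and Gm11844 were lost without Fra1 control 1 (or Fra1 mutant 1), 4833422C13Rik and Gm36041 without Fra1 control 2 (among others) and Gm35696 without Fra1 control 3 (among others), at adjusted p values up to 0.0553, 0.0565, 0.0738, 0.0683 and 0.0622. The calls of Gm20319, Gm17690 and 1700113A16Rik held in 3, 6 and 4 of the 12 fits. These 3 also missed the threshold with no scaling factor, with only the 6 libraries compared and with the replicate block, and Gm15998 missed it with no filter (adjusted p = 0.0641). Of the 13 Fra1 calls, 9 held under each of the 8 other settings of tool, scaling, filter and design. In Fra2 the calls of Gm26747, Gm11844, 1810008I18Rik and Gm19705 held in 8, 5, 4 and 3 of the 12, and each was lost without any of Fra2 control 2, Fra2 control 3, Fra2 mutant 2 and Fra2 mutant 3, with adjusted p values over the 12 fits up to 0.0852, 0.129, 0.180 and 0.146. Under the 8 other settings these calls held in 7, 5, 7 and 6, Gm11844 being lost with limma-voom among others, and that of Gm36264 held in all 8. Without Fra2 controls 1 and 2 together, the Fra2 log2 fold changes were 2.23 for Gm19705 and 5.43 for Gm26747. Those of Gm11844, Gm36264 and 1810008I18Rik were -2.53, -3.27 and -1.54. With 1 Fra2 control left, that fit cannot show whether the calls hold.

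Called in both strains were 4 lncRNAs, which are 30.8% of the 13 called in Fra1 and 80% of the 5 called in Fra2. Over all genes tested, 114 were called in both, or 21.1% of the 540 called in Fra1 and 76% of the 150 called in Fra2. All 13 lncRNAs called in Fra1 had the same sign in Fra2, as did 502 of the 540 genes (93.0%). No lncRNA passed the test of the difference between the effects (Fra2 minus Fra1), where 5 of all genes tested did (0.0355%, with 0.0071% positive and 0.0284% negative). For that difference 19 of the 383 lncRNAs had an unadjusted edgeR p under 0.05, a cut that unchanged genes also pass at a rate of about 0.05. DESeq2 and limma-voom called 0 lncRNAs. The log2 fold change was further from 0 in Fra1 than in Fra2 for each of the 13, which were chosen on the Fra1 test. Between the controls of the strains no lncRNA passed by edgeR, DESeq2 or limma-voom (0% of all genes by edgeR). There 13 of the 383 lncRNAs had an unadjusted edgeR p under 0.05, a cut with the same rate. Neither count of unadjusted p values is read as a difference. All 3 Fra2 controls were above all 3 Fra1 controls for 12 lncRNAs (3.13%, beside 5.28% of all genes) and below them for 5 (1.31%, beside 4.83%).

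**Figure D3:**
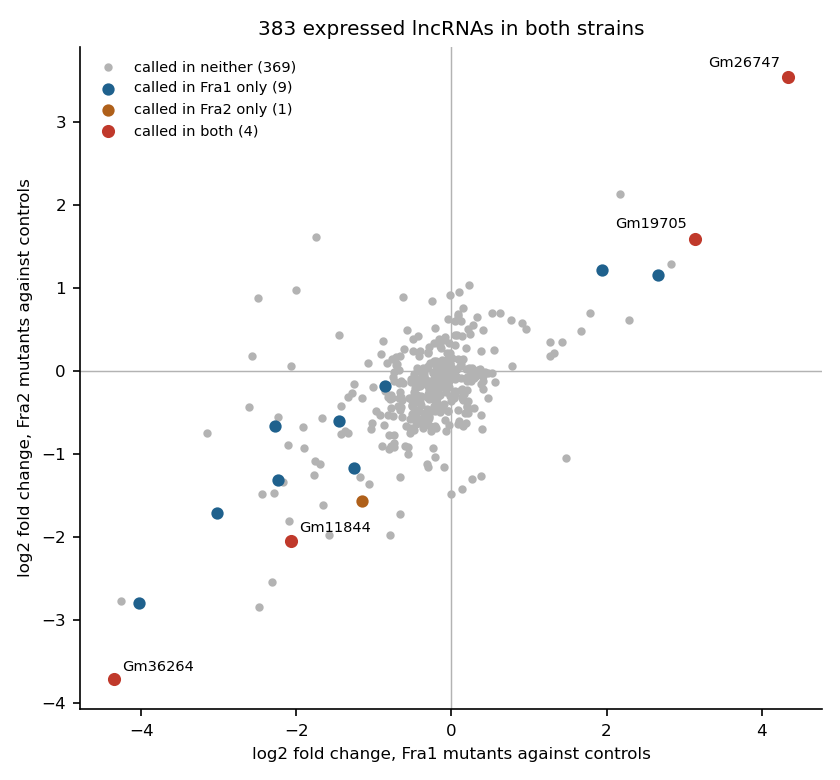
Log2 fold change of each of the 383 lncRNAs in Fra1 mutants (horizontal) and Fra2 mutants (vertical), coloured by where it was called. The 4 called in both strains are named, and all called points lie in the lower left or upper right quadrant.

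Gm3734 and Gm44787 showed large differences without overlap in 1 strain that did not pass the test. Gm3734 (ENSMUSG00000117780.1), an intergenic RNA 14351 bases from the translation initiation gene Eif1a, gave 13, 21.9 and 9.03 CPM in the Fra1 controls and 0.984, 0.684 and 0.609 in the Fra1 mutants (-4.27 ± 1.06, adjusted p = 0.0529). It passed in 5 of the 8 other settings (DESeq2 adjusted p = 0.000167) and without any 1 of the Fra2 controls. It gave 114, 7.25 and 13.2 CPM in the Fra2 controls and 10.3, 3.98 and 5.5 in the Fra2 mutants. Fra2 control 1 stood far above all other libraries. Gm44787 (chr11:79258586-79273893), 3915 bases from Wsb1, was at 2.43, 2.62 and 2.59 CPM in the Fra2 controls and 1.17, 0.0545 and 0.104 in the Fra2 mutants, below them without overlap (-2.54 ± 1.32, adjusted p = 0.518).

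Position relative to coding genes was taken from GENCODE M21. Of the 383 lncRNAs, 161 (42.0%) overlapped a coding gene on the opposite strand only, 29 (7.57%) overlapped one on the same strand, 90 (23.5%) lay within 5 kb of one and 103 (26.9%) lay farther away. In Fra1 the 161 lncRNAs antisense to a coding gene held 1 of the 4 that rose and 5 of the 9 that fell. Over all genes tested, 2.9% rose and 0.938% fell in Fra1. The antisense lncRNAs had a median log2 fold change of -0.28. Those beyond 5 kb held 2 that rose and 4 that fell, with a median of -0.24. Nearby lncRNAs within 5 kb had none called and a median of -0.21. Those on the same strand held 1 that rose, with a median of -0.22. In Fra2 the medians were -0.15 for antisense, -0.33 beyond 5 kb, -0.16 within 5 kb and -0.20 on the same strand. The order of the classes thus differed between strains, and the calls per class were too few to compare classes. The type given by GENCODE was lincRNA for 147, antisense for 116 and processed transcript for 85, and for 7 it was protein coding, against the label (among them Gm10644, Gm10762 and AW011738). None of these 7 was called.

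Of the 13 lncRNAs called in Fra1, 10 had a neighbouring coding gene that was tested, and 3 of these neighbours were called. Of these 3, 2 moved with their lncRNA and 1 against it, and 6 of the 10 pairs had the same sign. By comparison 8 neighbours were called in Fra1 over all 326 lncRNA and neighbour pairs, and 3.84% of all genes. In Fra2, 4 of the 5 called lncRNAs had a tested neighbour, and 0 of these neighbours were called. Over the 326 pairs 3 neighbours were called in Fra2, and 1.07% of all genes. Across the 326 pairs the Pearson correlation between the log2 fold changes of lncRNA and neighbour was 0.137 in Fra1 and 0.141 in Fra2, a description across genes, which are not independent replicates.

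Gm17690 and Mtmr11, which encodes a myotubularin-related protein, moved in opposite directions. Gm17690 (ENSMUSG00000097204.2, chr3:96167464-96172416, minus strand) shares 1513 exon bases with Mtmr11 on the opposite strand. It gave 2.87, 2.8 and 2.63 CPM in the Fra1 controls and 0.765, 0.842 and 1.42 in the Fra1 mutants, while Mtmr11 gave 3.13, 3.24 and 3.39 and 94.2, 116 and 84.7 CPM. In Fra2, Gm17690 gave 2.04, 3.07 and 1.83 CPM in controls and 1.58, 2.02 and 0.986 in mutants, while Mtmr11 gave 6.01, 9.37 and 2.43 and 58.3, 60.8 and 61.2 CPM. Mtmr11 was higher in all mutants of both strains, whereas Gm17690 was lower in all Fra1 mutants and overlapped in Fra2. Gm17690 fell by 1.45 on the log2 scale in Fra1 (SE 0.34, adjusted p = 0.0376) and was at -0.60 ± 0.33 in Fra2 (adjusted p = 0.552). The log2 fold changes of Mtmr11 were 4.92 ± 0.38 (adjusted p = 5.01e-05) and 3.34 ± 0.35 (adjusted p = 0.00127). Over the 12 libraries the Pearson correlation of their log2 values was -0.796.

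Gm20319 and Il1rap, the accessory chain of the interleukin-1 receptor, fell together in Fra1. Gm20319 (ENSMUSG00000092545.7, chr16:26714446-26755502, minus strand) shares 552 exon bases with Il1rap on the opposite strand. It gave 78.1, 73.2 and 62.2 CPM in the Fra1 controls and 54, 27.6 and 36.3 in the Fra1 mutants, while Il1rap gave 195, 182 and 181 and 113, 73.4 and 101 CPM. In Fra2, Gm20319 gave 62.2, 77 and 68 CPM in controls and 59.5, 63.5 and 60.1 in mutants, while Il1rap gave 159.9, 179 and 218 and 159, 139 and 128 CPM. Both genes were lower in every Fra1 mutant than in every control, and in Fra2 Gm20319 overlapped while Il1rap did not. Fitted log2 fold changes in Fra1 were -0.86 ± 0.20 for Gm20319 (adjusted p = 0.0354) and -0.96 ± 0.17 for Il1rap (adjusted p = 0.00772). Over the 12 libraries Gm20319 was at a median of 39.4% of the Il1rap count, between 31.2% and 48.0%, with a Pearson correlation of 0.913.

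Gm31084 and Srd5a2, the gene of a steroid 5-alpha-reductase 7815 bases away on the same strand, rose together in Fra1. Srd5a2 gave 0.783, 1.62 and 3.23 CPM in the Fra1 controls and 9.35, 7.0 and 7.36 in the Fra1 mutants, and 2.1, 3.07 and 3.45 and 3.85, 7.3 and 4.41 in the Fra2 controls and mutants. Its Fra1 mutants were all higher than the controls, as were its Fra2 mutants by a small margin. Fold changes on the log2 scale were 2.06 ± 0.42 (adjusted p = 0.0205) and 0.85 ± 0.41 (adjusted p = 0.471). The Pearson correlation of Gm31084 with Srd5a2 over the 12 libraries was 0.709.

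Gm10680 followed Apoa4, an apolipoprotein of lipid-rich particles, without being called. This antisense RNA (chr9:46242621-46243529, minus strand, 632 shared exon bases) gave 3.91, 0.540 and 1.29 CPM in the Fra1 controls and 6.72, 12.9 and 5.58 in the Fra1 mutants, and Apoa4 gave 637, 514 and 357 and 1549.9, 6031 and 1519.6 CPM. In Fra2, Gm10680 gave 0.0552, 13.6 and 3.4 CPM in controls and 22.9, 34.5 and 16.8 in mutants, and Apoa4 gave 5.02, 1956 and 543 and 2552, 11258 and 4079 CPM. Mutants were above controls in both strains, and Fra2 control 1 was far lower than any other library for both genes. The log2 fold changes of Gm10680 were 2.17 ± 1.06 (adjusted p = 0.341) and 2.12 ± 0.98 (adjusted p = 0.449). Gm10680 was at 0.105% to 1.10% of the Apoa4 count, with a correlation of 0.923.

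The libraries keep strand, per the labels' protocols, but no source used here gives the strand setting of the counting, so a part of an antisense lncRNA's counts that came from its partner cannot be told apart. For 26 lncRNA rows that share at least 500 exon bases with an opposite-strand coding gene of at least 100 CPM, the median level was 0.398 CPM against 230.3 CPM for the partners, and the median ratio was 0.00152.

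**Figure D4:**
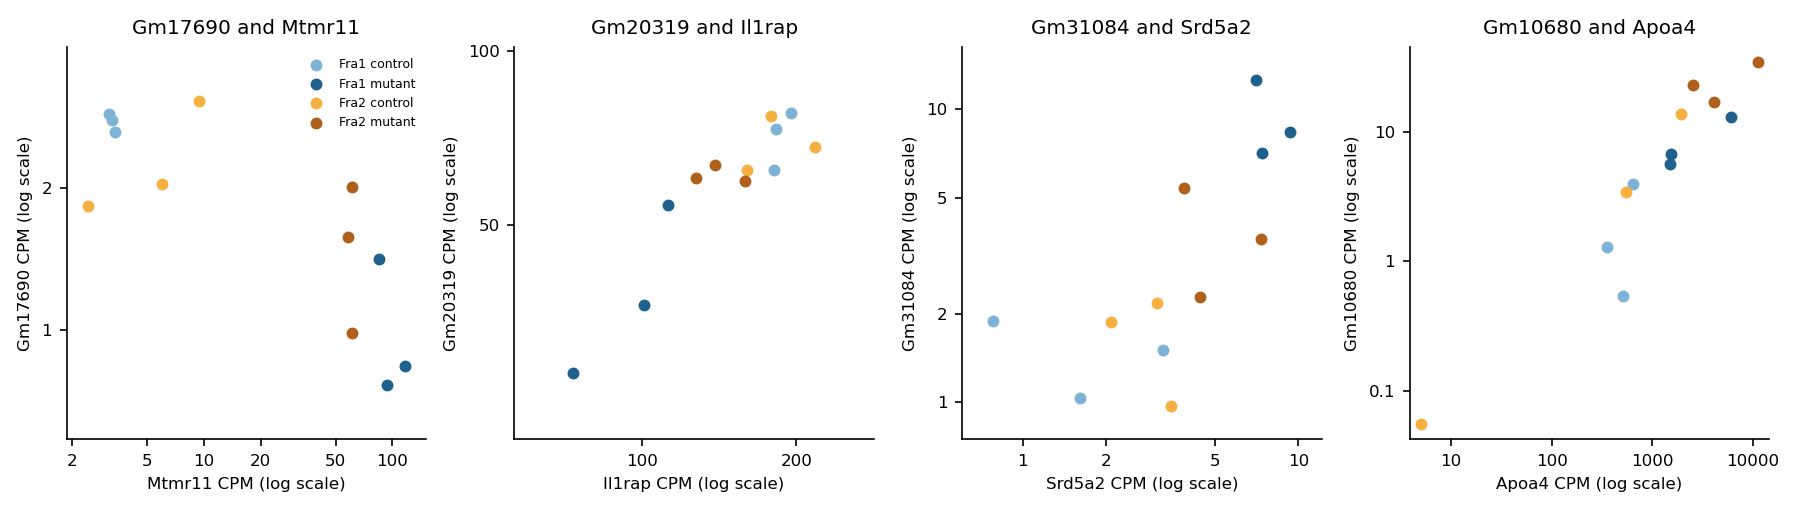
CPM of a lncRNA (vertical) against its overlapping or neighbouring coding gene (horizontal) in the 12 libraries, both on log scales. Gm17690 runs against Mtmr11, whereas Gm20319, Gm31084 and Gm10680 run with Il1rap, Srd5a2 and Apoa4.

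In level, most of the 383 lncRNAs were low. Their mean CPM over the 12 libraries ran from 1.13 to 720.3 with a median of 3.90, beside a median of 16.5 over the coding genes tested, and 72 reached 10 CPM and 6 reached 100 CPM. The 3 highest lncRNAs held 31.5% of all counts of the set, and the 10 highest held 47.0%. Per kilobase of exon the order changed, with BC024386 first at 249.9 CPM per kb, Gm42418 at 220.8 and AW112010 at 107.6, and Neat1 eighth at 34.7. The length used was that of all annotated exons of a gene merged. Which transcript forms were counted is not known, so a gene counted mainly through a shorter form would rank too low.

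Neat1, the scaffold of paraspeckles, was the most abundant by count (20771 exon bases). It gave 710.5, 774 and 565 CPM in the Fra1 controls, 562, 473 and 1428 in the Fra1 mutants, 452, 1588 and 899 in the Fra2 controls and 379, 337 and 476 in the Fra2 mutants. Fra1 mutant 3 and Fra2 control 2 stood above the rest, and groups overlapped in both strains. Log2 fold changes were 0.26 ± 0.46 (adjusted p = 0.839) and -1.30 ± 0.47 (adjusted p = 0.298), and without Fra1 mutant 3 the Fra1 value was -0.42, while without Fra2 control 2 the Fra2 value was -0.77. Malat1, an abundant nuclear-speckle RNA, was at 116 ± 50.5 and 145 ± 18.6 CPM in the Fra1 controls and mutants and at 148 ± 44.8 and 143 ± 47.5 in those of Fra2, with overlap in both strains.

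BC024386 (ENSMUSG00000109628.1, chr7:140906014-140907983, plus strand), the second most abundant, was lower in the mutants of both strains without passing the test. It gave 652, 621 and 359 CPM in the Fra1 controls and 276, 204 and 242 in the Fra1 mutants. In Fra2 it gave 545, 914 and 442 CPM in the controls and 317, 210.4 and 255 in the mutants. All 6 mutants were below all 6 controls. The log2 fold changes of -1.18 ± 0.29 (adjusted p = 0.0513) and -1.28 ± 0.29 (adjusted p = 0.0748) did not pass by edgeR, and DESeq2 called both (adjusted p = 0.00212 and 0.00151). Its log2 CPM correlated with that of 1810008I18Rik at 0.799 over the 12 libraries, a value that includes the group differences of both RNAs.

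Gm42418, a locus known to overlap a ribosomal RNA repeat, came next and varied by library more than by group, from 431, 719 and 278 CPM in the Fra1 controls to 284, 309 and 469 in the Fra2 mutants. The remaining RNAs of the 10 highest overlapped between mutants and controls and none was called. They are 0610005C13Rik (-0.18 ± 0.13 in Fra1, -0.03 ± 0.13 in Fra2), 9130016M20Rik (-0.03 ± 0.18 and -0.13 ± 0.18), AW112010 (0.01 ± 0.15 and 0.15 ± 0.15), Gas5 (-0.07 ± 0.11 and -0.15 ± 0.11) and Oip5os1 (-0.03 ± 0.14 and -0.19 ± 0.14). AW112010 is known from immune cells, and Gas5 hosts small nucleolar RNAs.

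**Figure D5:**
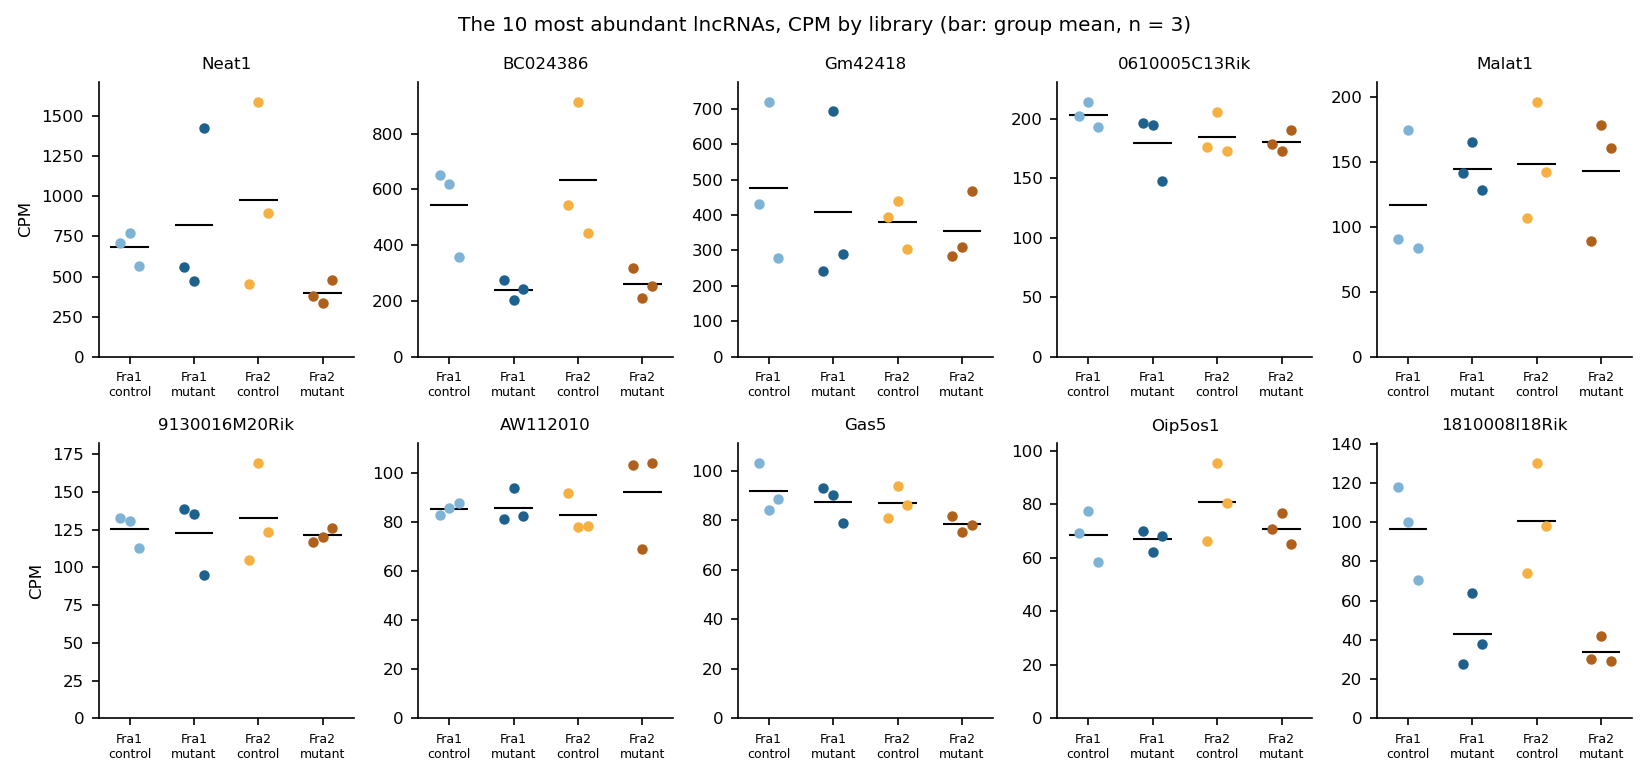
CPM of the 10 most abundant lncRNAs by library, each axis starting at 0, with a bar at the mean of 3 libraries. BC024386 and 1810008I18Rik are lower in all mutants than in all controls, and the other 8 overlap between mutants and controls in both strains.

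Small nucleolar RNA hosts, whose introns release guides for ribosomal RNA modification, were the best represented known class, with 16 of 20 listed genes in the set. None was called in either strain by edgeR, and DESeq2 called Snhg17 and Zfas1 in Fra2 (adjusted p = 0.0346 and 0.0308). In Fra2, 15 of the 16 had a negative log2 fold change, beside 70.2% of the 383 lncRNAs and 50.9% of all genes. The median of the 16 was -0.38, beside -0.20 over all 383 lncRNAs and -0.01 over all genes. An unadjusted edgeR p under 0.05 was found for 5 of the 16, beside 54 of the 383 (14.1%) and 11.5% of all genes. Snhg17 gave 20.4, 35.1 and 21.5 CPM in the Fra2 controls and 14.8, 16.2 and 17.1 in the Fra2 mutants (-0.68 ± 0.18, adjusted p = 0.124). Zfas1 gave 12.9, 15.5 and 14.2 and 8.64, 8.61 and 10.2 CPM (-0.63 ± 0.17, adjusted p = 0.122). Snhg17, Zfas1, Snhg1, Snhg5 and Snhg12 had all Fra2 mutants below all Fra2 controls, beside 13.3% of the 383 lncRNAs and 8.17% of all genes, and Fra2 control 2 was the highest Fra2 library for each of these 5. Without that library, 13 of the 16 were negative with a median of -0.26, and 2 had an unadjusted edgeR p under 0.05. Without Fra2 controls 1 and 2, 13 were negative with a median of -0.24. Epb41l4aos was at -0.90 ± 0.30 (adjusted p = 0.245), with overlap. In Fra1, 12 of the 16 were negative, beside 73.4% of the 383 lncRNAs and 49.0% of all genes. Their median was -0.20, beside -0.24 over the 383. The lowest was Snhg8, which gave 25.3, 15.8 and 13 CPM in controls and 8.42, 11.9 and 11.2 in mutants (-0.77 ± 0.29, edgeR adjusted p = 0.199). Snhg18 ran the other way, at 0.77 ± 0.40 in Fra1 and 0.61 ± 0.40 in Fra2, with mutants above controls in both strains.

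Among microRNA hosts, 4 of 10 listed genes were in the set and none was called. Mir22hg, host of a microRNA abundant in liver, was at -0.01 ± 0.24 and -0.07 ± 0.24. Mir99ahg gave 1.77, 3.07 and 2.21 CPM in the Fra2 controls and 1.11, 1.25 and 0.882 in the Fra2 mutants, without overlap (-1.12 ± 0.33, adjusted p = 0.175). Mir17hg and Mir100hg were at -0.65 ± 0.35 and -0.69 ± 0.43 in Fra2.

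Imprinted lncRNAs, which are transcribed from 1 parental allele, numbered 5 of 10 listed, and none was called. Meg3 and Rian, from the same imprinted cluster, varied several fold within groups: Meg3 gave 1.57, 7.85 and 2.63 CPM in the Fra1 controls and 7.18, 0.599 and 0.467 in the Fra2 mutants. Peg13, Kcnq1ot1 and Snhg14 were at 0.14 ± 0.21, 0.38 ± 0.32 and 0.19 ± 0.41 in Fra1 and at -0.32 ± 0.21, -0.16 ± 0.31 and -0.08 ± 0.39 in Fra2. Of 4 genes of the X-inactivation centre, Jpx (-0.67 ± 0.34 and -0.25 ± 0.34) and Ftx (-0.26 ± 0.20 and -0.26 ± 0.20) were in the set, and neither passed. Of 21 lncRNAs listed for roles in stress or growth, 5 were in the set. Tug1, a widely expressed RNA, was at 0.00 ± 0.13 and 0.00 ± 0.13, and Firre, which acts in nuclear organisation, at -0.21 ± 0.16 and -0.27 ± 0.16. Pvt1, a neighbour of Myc, gave 2.59, 2.4 and 1.46 CPM in the Fra2 controls and 3.97, 3.49 and 3.42 in the Fra2 mutants, higher without overlap (0.75 ± 0.33, adjusted p = 0.406). Fendrr was at 0.03 ± 0.21 and -0.33 ± 0.21.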

How the data were processed

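Per the labels' protocols, liver RNA was extracted with Trizol, enriched for polyadenylated RNA and made into stranded libraries. The authors deposited whole-number counts per gene that are not normalized. Per the submitters' processing notes, the tools included STAR (version 2.6.1a), RSEM, bedtools (version 2.27.1) and DESeq2 (version 1.22.2), with build GRCm38 (mm10), and no source used here says which tool made the counts, with which annotation and strand setting. Genes passing filterByExpr (14076, all 383 lncRNAs included) were scaled by TMM and fitted in R 4.3.3 with edgeR 4.0.16 (robust quasi-likelihood, 4 group means, 12 libraries). Tests were two-sided, with Benjamini-Hochberg adjustment over all genes tested. Printed CPM use TMM-scaled library sizes, whereas the level rule used column totals. Totals of 16834041 to 20464807 counts limit the precision of low lncRNAs. Standard errors were derived from the test statistic. Coordinates are from GENCODE M21, matched by identifier for all 383, and promoter windows from RefSeq, matched by symbol for 243. The script was tested on simulated data. The members and lists were chosen with earlier results of these data known. Named are the 10 most abundant lncRNAs, all called ones, the 3 largest changes per direction without overlap, the listed genes, and those beside the level threshold. Alternatives were RLE factors, no scaling, DESeq2 1.42.0, limma-voom (limma 3.58.1), other filters, fewer libraries and a replicate block.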

Additional observations from a re-analysis of the deposited data

How the results depend on the processing

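No named lncRNA that was called changed direction under an alternative. With no scaling factor 7 lncRNAs rose in Fra1 in place of 4. DESeq2 called 7 as rising and 30 as falling in Fra1, in place of 4 and 9. In Fra2 it called 3 as rising and 10 as falling, in place of 2 and 3. Over all 14076 genes DESeq2 called 678 up and 343 down in Fra1, in place of 408 and 132. In Fra2 it called 315 up and 133 down of all genes, in place of 119 and 31. The cause was not tested. With only the 6 libraries compared in the fit, 0 lncRNAs rose in Fra2, beside 71 of 13556 genes tested. With the replicate number as a block, 5 lncRNAs rose and 10 fell in Fra1 and 1 rose and 2 fell in Fra2. Over all genes the block gave 359 up and 107 down in Fra1 and 87 up and 24 down in Fra2. Gm20319, Gm17690 and 1700113A16Rik lost their Fra1 call under the block (edgeR adjusted p = 0.0541, 0.0672 and 0.0789), and Gm19705 and Gm11844 their Fra2 call. Deviations from the group means correlated at -0.121 to 0.0558 between same-numbered controls and mutants of a strain. Between those with other numbers the correlations were -0.142 to 0.107. With 3 libraries a group, these values cannot decide whether the numbers pair mice. Leaving out a library gave 4 to 13 falling in Fra1, 0 to 3 rising in Fra2, 1 to 4 falling in Fra2 and 3 to 5 rising in Fra1. Leaving out Fra2 controls 1 and 2 together, chosen after seeing the data, left 1 Fra2 control, so calls from that fit are not given. A minimum of 1 CPM would have given 587 lncRNAs and one of 5 CPM 186. The difference of the effects and the control comparison gave 0 calls under each alternative run. With limma-voom and with no filter, 3 rose and 2 fell in Fra2. With 3 libraries per group and a median level of 3.90 CPM, a lncRNA that did not pass is not shown to be unchanged.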

Other observations

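The lncRNAs varied more among libraries of a group than genes in general. The SD of log2 CPM within groups had a median of 0.393 over the 383 lncRNAs and of 0.266 over all genes tested, and it was above 1 for 36 lncRNAs (9.40%) and for 412 of all genes (2.93%). The part of depth in it was not tested. The following RNAs were chosen after their values were seen, as those with the largest spread. Gm31583, an intergenic RNA whose nearest coding gene is Bcl6, a transcriptional repressor, gave 22.2, 25.3 and 11.5 CPM in the Fra1 controls and 5.68, 0.158 and 31.2 in the Fra1 mutants. It gave 96.3, 20.1 and 25 CPM in the Fra2 controls and 9.28, 10.6 and 22.8 in the Fra2 mutants. Fra1 mutant 2 was far below the other Fra1 mutants, which differed as well, and Fra2 control 1 was far above the other Fra2 controls. Gm34654, an intergenic RNA whose nearest coding gene is Gclc, of glutathione synthesis, gave 6.39, 10.4 and 0.860 CPM in the Fra1 controls and 0.0547, 4.95 and 0.203 in the Fra1 mutants. In the Fra2 controls it gave 2.04, 15.1 and 7.28 CPM and in the Fra2 mutants 0.934, 8.23 and 2.33, and replicates differed by more than the groups did. Gm50136 was in the same class, with 15.8, 1.23 and 0.971 CPM in the Fra2 controls. None of these was called in either strain.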
